A study of Mus musculus with 15 samples.

Results

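Wnt stimulation took optic progenitor tissue from Day 10 through Day 12 to Day 15, and some genes left their Day 10 level at Day 12 only to turn back by Day 15. A gene was called a peak when its 3 Day 12 +Wnt values all lay above the 6 values of Day 10 and Day 15 +Wnt tissue, and a dip when all 3 lay below them. Of 23244 gene entries, 13836 had a deposited value of at least 1 CPM (read counts scaled to library size) in at least 3 of the 15 libraries. Among these were 1013 peaks (7.32%) and 833 dips (6.02%), or 1846 genes in all, which are the genes described here. A further 35 peaks and 70 dips lay under the filter and were left out.

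The tissue was grown by SFEBq, in which mouse embryonic stem cells are dissociated, left to reaggregate in serum-free medium and form an epithelium that resembles the optic vesicle. All samples came from the EB5 Rx::GFP+/- line, whose GFP marks cells that express the eye field gene Rax (Rx). GFP+ epithelium was explanted at Day 10 and was either collected (Day 10 Rx::GFP+) or moved to retinal maturation medium with 1 of 2 stimulations. The +Wnt explants received the GSK3 inhibitor CHIR99201, 3 μM for the first 24 h and 1 μM from then on, and the +Fgf explants received 5 ng/ml human recombinant bFgf together with 10% FBS. Explants of each stimulation were collected at Day 12 and Day 15, with 3 biological replicates in each of the 5 groups. The labels call the Day 12 +Wnt and Day 15 +Wnt tissue SFEBq derived retinal pigmented epithelium (RPE). No tissue cultured after Day 10 without a stimulation was analysed here, so effects of explanting, of the medium and of time cannot be told apart from those of CHIR99201. All groups came from 1 reporter line, and whole tissue was sequenced, so fewer cells of a type and less RNA per cell cannot be told apart in any value below.

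As background, GSK3 belongs to the complex that marks β-catenin for destruction, so its inhibition lets β-catenin reach the nucleus and work with TCF/LEF factors on Wnt target genes. Several of those targets are themselves inhibitors of the pathway (Axin2, Nkd1, Dkk1). In the embryo the optic vesicle can give rise to RPE or to neural retina, and Wnt signals favour RPE while Fgf signals favour neural retina.

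The 9 libraries of the +Wnt path held between 12556998 and 16086698 recovered reads, and 1 read was worth 0.0620 to 0.0764 CPM over all 15 libraries, so depth differed little between groups. The pigment cell genes Pmel, Tyr, Mitf and Otx2 were present in all Day 12 +Wnt libraries, at 575 to 853, 127 to 163, 119 to 141 and 246 to 249.97 CPM, and none was a peak or dip that passed the test. Pmel, Mitf and Otx2 were already at 472 to 694, 118 to 141 and 177 to 218 CPM at Day 10. Their presence alone therefore does not set Day 12 +Wnt tissue apart from Day 10. The eye field gene Rax was still at 39.9 to 51.1 CPM, between its Day 10 (157 to 174) and Day 15 +Wnt (5.15 to 5.83) levels. Rpe65 and Rgr, which define mature RPE, were at 0 in all 3 libraries at Day 10, at Day 12 +Wnt and again at Day 15 +Wnt. The whole list of 14 visual cycle and mature RPE genes did rise. It summed to 663 to 698 CPM at Day 10, 733 to 762 CPM at Day 12 +Wnt and 1220 to 1378 CPM at Day 15 +Wnt.

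To separate genes that turned back from genes that moved once and stayed, both steps were tested with limma on log2(CPM + 0.3), and a peak or dip was called tested when the step from Day 10 to Day 12 +Wnt and the step from Day 12 +Wnt to Day 15 +Wnt both passed an adjusted p of 0.05 in opposite directions. The first step alone was higher for 30.6% and lower for 29.6% of all genes, and the second higher for 32.4% and lower for 35.5%. The contrast of Day 12 +Wnt with the average of Day 10 and Day 15 +Wnt was higher for 24.6% and lower for 20.2% of genes. There were 756 tested peaks (5.46% of genes) and 643 tested dips (4.65%). The non-overlap and the test rest on the same 9 libraries, so the test is no separate evidence that these genes are transient. At the border of the rule, the lowest Day 12 +Wnt value of Pias3 lay 0.00043 (log2) above the highest other value and made it a peak, and Twf1 was a dip by 0.00057, while Atp5j2 and Gnl1 fell just outside.

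**Figure D1:**
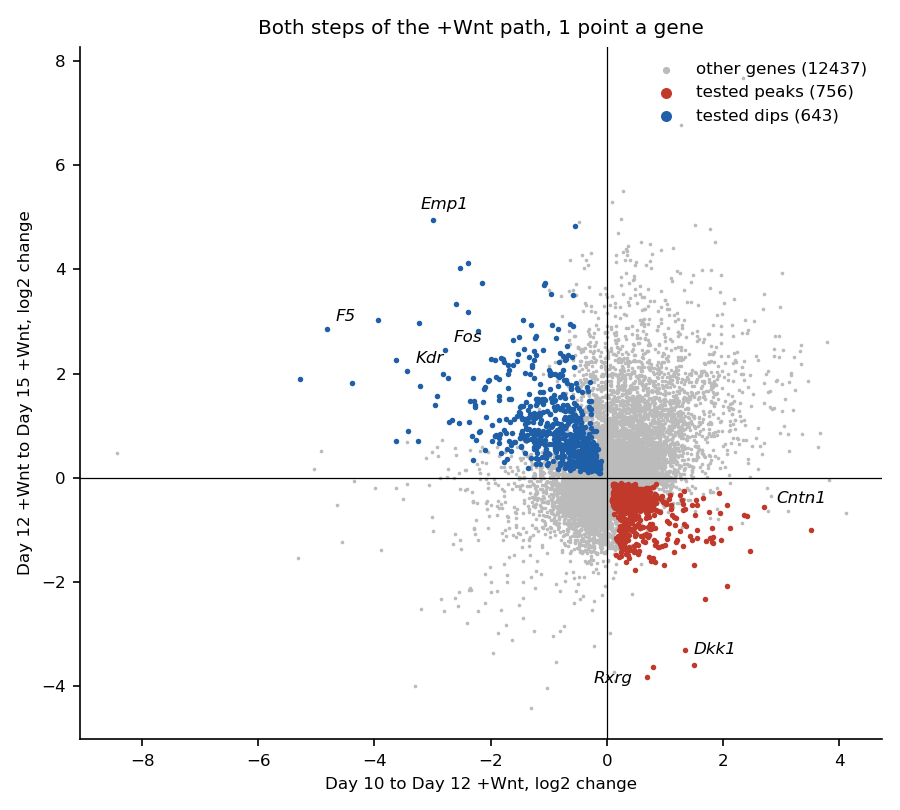
Each point is 1 of 13836 genes, with the log2 change from Day 10 to Day 12 +Wnt on the x axis and the log2 change from Day 12 +Wnt to Day 15 +Wnt on the y axis. The 756 tested peaks (red) lie at the lower right and the 643 tested dips (blue) at the upper left, where the blue points reach further from the origin than the red.

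Dips were deeper than peaks were high. The transient contrast, which is the Day 12 +Wnt mean minus the average of the Day 10 and Day 15 +Wnt means on the log2 scale, had a median size of 0.383 over peaks and 0.734 over dips, against 0.182 over all genes. It reached 1 log2 unit in 63 peaks and in 285 dips. The dips also stood lower, with a median path level of 16.1 CPM against 39.2 CPM for peaks and 30.7 CPM for all genes. By Day 15, 462 peaks (45.6%) and 370 dips (44.4%) were not distinguishable from their Day 10 level by limma, compared with 20.2% of all genes (39.4% of all genes were higher and 40.3% lower at Day 15), and this description follows in part from how the members were chosen.

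**Figure D2:**
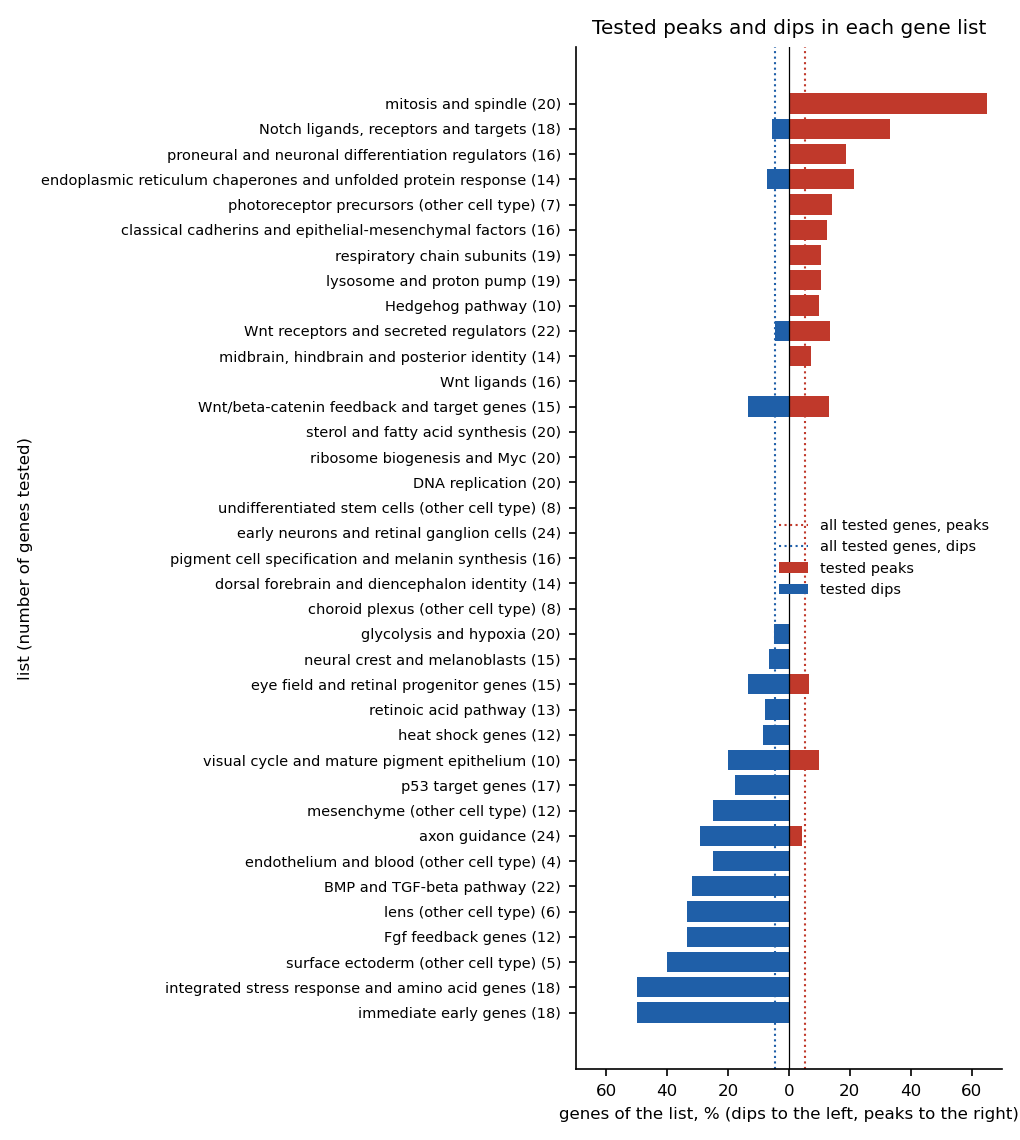
Bars give the share of each gene list that were tested peaks (red, to the right) or tested dips (blue, to the left), with the number of genes tested in parentheses, and dotted lines mark the shares over all genes (5.46% and 4.65%). The mitosis list reaches furthest to the right, with 13 of 20 genes, and the immediate early and integrated stress response lists furthest to the left, with 9 of 18 genes each.

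The Wnt pathway itself held members of both kinds. Dkk1, a secreted inhibitor that blocks the Wnt co-receptor Lrp6, was the tested peak with the largest contrast among genes that reached 10 CPM. It was measured at 12.3, 9.76 and 14.7 CPM at Day 10, 31.2, 28.5 and 34.1 CPM at Day 12 +Wnt and 2.48, 2.68 and 3.58 CPM at Day 15 +Wnt. All 3 Day 12 +Wnt values were thus above every other value of the path, and the Day 15 values lay below those of Day 10. The mean at Day 12 was 2.55-fold that of Day 10 and 10.7-fold that of Day 15 +Wnt (log2 2.33 ± 0.16 SE, adjusted p = 1.06e-08). In the +Fgf tissue Dkk1 was at 9.57 to 15.5 CPM at Day 12, lower than in +Wnt (log2 1.42 ± 0.18 SE, adjusted p = 5.32e-06 for +Wnt minus +Fgf). The gene lies on the minus strand at chr19:30545863-30549665 (GRCm38, GENCODE), and its 300 bases from 250 before to 50 after the start given by RefSeq (chr19:30549447-30549746, GRCm38.p6) held 2 matches to the TCF/LEF motif on the other strand, in capitals here:

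Dkk1: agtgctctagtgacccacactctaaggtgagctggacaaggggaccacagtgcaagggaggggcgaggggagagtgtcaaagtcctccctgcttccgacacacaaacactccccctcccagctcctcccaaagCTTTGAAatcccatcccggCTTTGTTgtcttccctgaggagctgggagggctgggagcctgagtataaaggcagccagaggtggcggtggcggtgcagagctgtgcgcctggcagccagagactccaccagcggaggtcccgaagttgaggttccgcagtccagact

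The motif was searched on both strands as CAAAG preceded by a pair of bases that are each A or T. It was found in 11.0% of the 10189 tested symbols with a promoter in the table, in 12.9% of tested peaks and 8.54% of tested dips, and in 2 of 10 Wnt feedback genes (Dkk1 and Sp5).

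Over the 15 Wnt feedback and target genes measured, 2 were tested peaks (Dkk1 and Nkd1) and 2 were tested dips (Lgr5 and Nkd2), and the median transient contrast was 0.26 against 0.0196 over all genes. Nkd1, an intracellular inhibitor of Dishevelled, was a small peak, at 1.36-fold its Day 10 and 1.13-fold its Day 15 level (log2 0.32 ± 0.06 SE, adjusted p = 0.00036). Its paralogue Nkd2 moved the other way. Nkd2 was at 2.89 to 4.11 CPM at Day 12 +Wnt, below 5.2 to 6.62 CPM at Day 10 and 12.1 to 14.6 CPM at Day 15 (log2 -1.30 ± 0.26 SE, adjusted p = 0.000622). Lgr5, a receptor for R-spondins, stood at 29.9, 44.1 and 32.2 CPM at Day 10, 3.46, 2.92 and 3.84 CPM at Day 12 +Wnt and 4.96, 7.23 and 5.19 CPM at Day 15 +Wnt, so it dropped 10.4-fold and recovered only 1.7-fold. Axin2 and Lef1, the usual readouts of the pathway, were not tested peaks. Lef1 was a peak by non-overlap only, at 35.3 to 44.2 CPM at Day 10, 47.1 to 48.9 CPM at Day 12 +Wnt and 41.9 to 43.8 CPM at Day 15 +Wnt. Neither of its steps was called by limma (adjusted p = 0.25 and 0.51). Its contrast did not pass in the main limma fit (adjusted p = 0.34) but did with only the 9 path libraries fitted (adjusted p = 0.019). Axin2 stood at 76.3 to 85.2 CPM at Day 10, at 174 to 199 CPM at Day 12 +Wnt and at 164 to 183 CPM at Day 15 +Wnt, and its second step was not called (adjusted p = 0.82).

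Of 22 Wnt receptors and secreted regulators, the tested peaks were the frizzled receptors Fzd4, Fzd7 and Fzd8. Fzd4 was measured at 50.7, 57.6 and 49 CPM at Day 10, 108, 97.4 and 112 CPM at Day 12 +Wnt and 44.7, 43 and 41.2 CPM at Day 15 +Wnt, with no overlap (log2 1.15 ± 0.08 SE, adjusted p = 2.45e-08). Fzd8 was at 21.6 to 23.2 CPM, then 29.7 to 35 CPM and then 12.5 to 14.2 CPM (log2 0.91 ± 0.07 SE, adjusted p = 7.9e-08), and Fzd7 followed the same course with a contrast of 0.68. In all 3 the Day 15 level was also below that of Day 10. Dkk3, a secreted member of the Dickkopf family, was the only tested dip of this list. Its level was 102, 101 and 114 CPM at Day 10, 13, 13.2 and 14.8 CPM at Day 12 +Wnt and 40.1, 45.5 and 37.7 CPM at Day 15 +Wnt, and at Day 12 the +Fgf libraries held 437 to 532 CPM, or 34.7-fold more. Ctnnb1, which encodes β-catenin, was among the 4 tested peaks with the largest change in CPM, although the relative change was small, with 1505 to 1542 CPM, 1599 to 1679 CPM and 1201 to 1254 CPM along the path (log2 0.25 ± 0.03 SE, adjusted p = 1.53e-05). None of 16 Wnt ligands was a tested peak or dip.

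**Figure D3:**
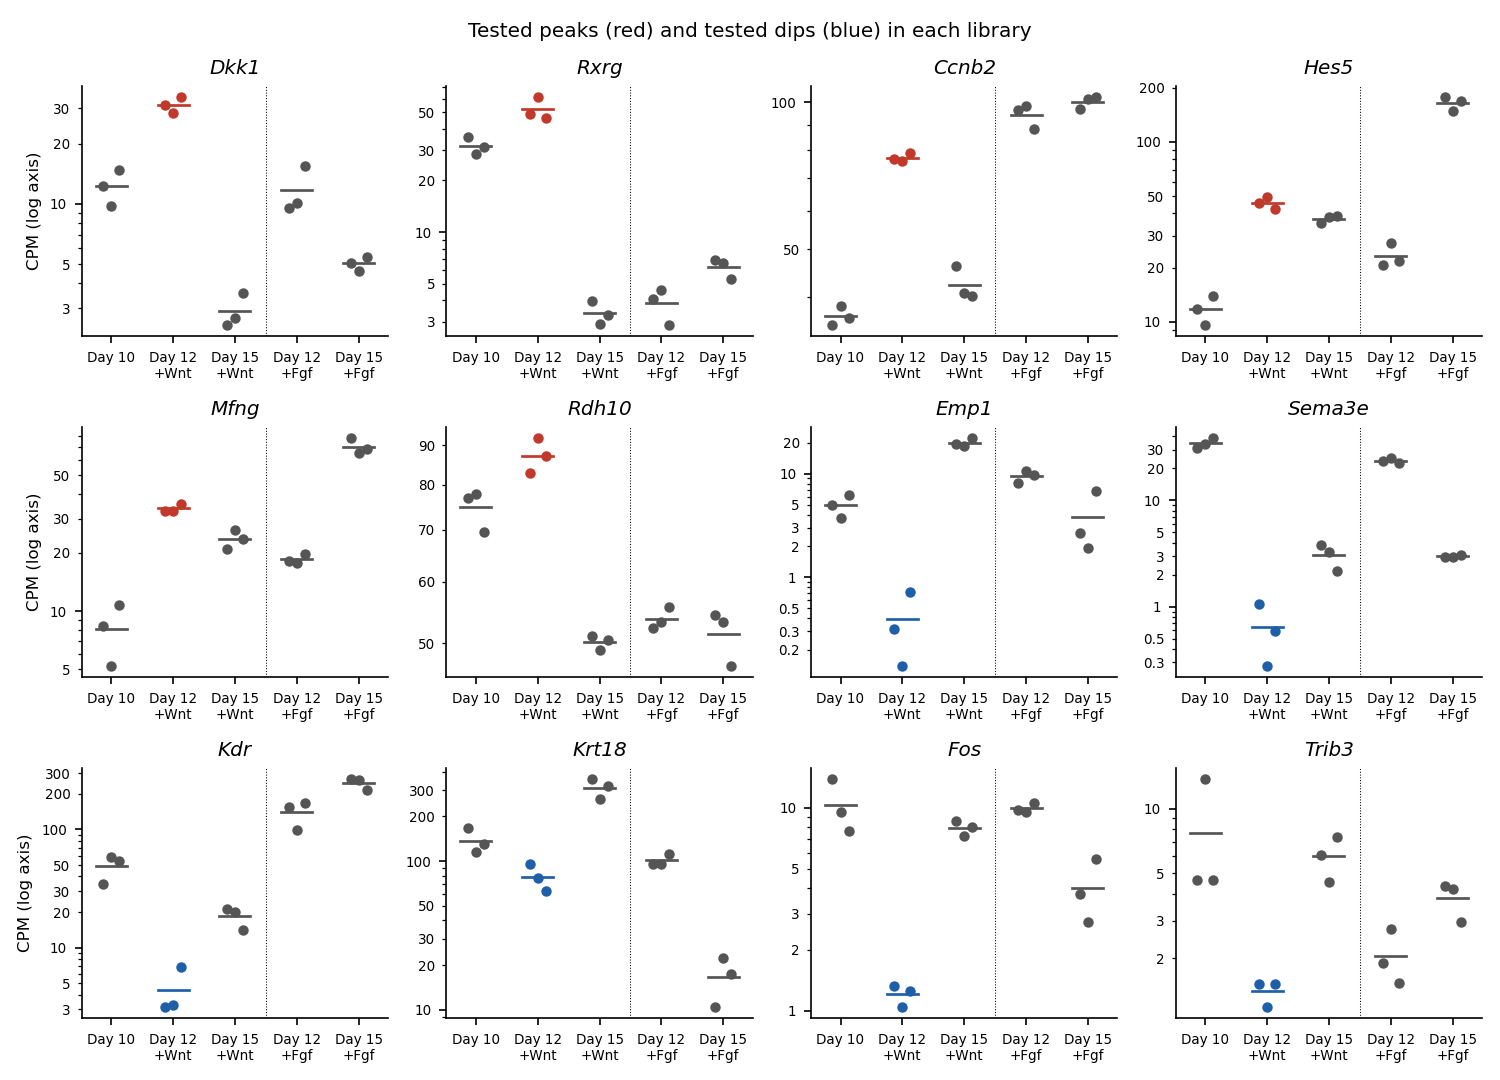
Points are the 3 libraries of each group in CPM on log axes and short lines are group means, with the +Wnt path to the left of the dotted line, the +Fgf groups to the right and the Day 12 +Wnt libraries in red (peaks) or blue (dips). Rxrg was low in every +Fgf library, whereas Hes5 and Mfng were higher at Day 15 +Fgf than anywhere on the +Wnt path, and Emp1, Fos and Sema3e fell below all other groups at Day 12 +Wnt.

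Mitotic genes made up the clearest group of peaks. Of 20 genes of mitosis and the spindle, 15 were peaks and 13 were tested peaks (Aurka, Birc5, Bub1b, Ccna2, Ccnb1, Ccnb2, Cdk1, Cenpe, Cenpf, Kif20a, Mki67, Nusap1 and Tpx2), none was a dip, and the median transient contrast was 0.70. The rise from Day 10 was modest, between 1.19-fold and 2.11-fold in these 13 genes, and the later fall was between 1.82-fold and 2.59-fold. Ccnb2, a B-type cyclin, gave the largest contrast of the list, with 35, 38.2 and 36.2 CPM at Day 10, 76.4, 75.9 and 78.7 CPM at Day 12 +Wnt and 46.2, 40.6 and 40.2 CPM at Day 15 +Wnt. The 3 Day 12 libraries lay within 3 CPM of each other and far from both neighbours in time (log2 0.97 ± 0.05 SE, adjusted p = 1.05e-09). Ccnb1, the main mitotic cyclin, had 215 to 221 CPM at Day 10, 289 to 291 CPM at Day 12 and 108 to 114 CPM at Day 15 (log2 0.89 ± 0.04 SE, adjusted p = 4.26e-11). Bub1b, a checkpoint kinase, and Nusap1, a spindle protein, had contrasts of 0.89 and 0.85. For 12 of the 13 genes the Day 15 mean was below that of Day 10, Ccnb2 being the exception.

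DNA replication genes took another course. None of 20 was a peak or a dip, and 15 had already fallen at Day 12 while all 20 fell from Day 12 to Day 15 (median log2 -0.38 and -1.16 for the steps). The difference between the 2 lists was not tested. A list of 20 centromere and kinetochore genes, added after its members' values had been seen, held 8 tested peaks of 19 measured, among them Cenpa and Cenpw. Chromatin proteins that are abundant in dividing cells were the largest peaks in CPM. Hmgb2 stood at 810.5 to 863 CPM, then 878 to 985 CPM, then 316 to 343 CPM, and the histone variant gene H2afz and Hmgn2 had contrasts of 0.65 and 0.64.

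The rise was also measured in +Fgf tissue, against the same Day 10 libraries. All 20 mitosis genes rose from Day 10 to Day 12 +Fgf, a step that was higher for 27.9% and lower for 27.9% of all genes. Of the 13 tested peaks, 10 were lower in Day 12 +Wnt than in Day 12 +Fgf tissue, where 26.3% of all genes were lower and 25.2% higher. From Day 12 to Day 15 +Fgf, 6 of the 13 fell and 1 rose, where 29.9% of all genes fell and 27.2% rose. The transient contrast was higher in +Wnt than in +Fgf for all 20 genes of the list by a limma test of the difference, which was positive for 21.6% of all genes. That test uses the Day 12 and Day 15 +Wnt libraries that chose the peaks, so it describes these genes only. At Day 12 itself, 17 of the 20 genes were lower in +Wnt than in +Fgf tissue and 0 were higher.

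Promoter sequence is shown for these genes because they moved together. The cell cycle homology region (CHR), a motif known from promoters of mitotic genes, was searched as TTTGAA or TTTAAA on both strands, a choice made after the values were seen. It occurred in 9 of the 10 mitosis peaks with a promoter in the table (Aurka, Birc5, Bub1b, Ccnb1, Ccnb2, Cdk1, Cenpe, Cenpf and Mki67), in 24.3% of all tested peaks, 16% of tested dips and 18.2% of all genes. The same letters were also found in 6 of 8 promoters of the stress response dips described below, and TTTGAA overlaps the reverse complement of the TCF/LEF motif. The TCF/LEF motif itself was in 4 of the 10 mitosis promoters (Aurka, Bub1b, Ccnb2 and Cdk1), a larger share than among the Wnt feedback genes. The windows of Ccnb2 (chr9:70421505-70421804, minus strand) and Birc5 (chr11:117848987-117849286, plus strand), both GRCm38.p6 and from 250 bases before to 50 after the RefSeq start, carry matches in capitals:

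Ccnb2: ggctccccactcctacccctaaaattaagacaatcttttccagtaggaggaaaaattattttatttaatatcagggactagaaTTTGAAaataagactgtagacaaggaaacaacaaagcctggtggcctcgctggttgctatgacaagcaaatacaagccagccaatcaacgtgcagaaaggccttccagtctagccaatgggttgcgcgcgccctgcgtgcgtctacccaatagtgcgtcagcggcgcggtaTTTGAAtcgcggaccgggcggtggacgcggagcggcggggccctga
Birc5: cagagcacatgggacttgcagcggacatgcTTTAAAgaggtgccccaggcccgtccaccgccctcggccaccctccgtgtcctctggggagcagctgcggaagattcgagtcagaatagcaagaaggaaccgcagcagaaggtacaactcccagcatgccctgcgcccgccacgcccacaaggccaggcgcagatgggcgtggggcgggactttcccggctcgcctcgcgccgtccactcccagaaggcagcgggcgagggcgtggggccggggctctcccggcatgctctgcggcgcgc

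Ccnb2 holds 2 CHR matches, and the single CHR site of Birc5 reads the same on both strands. Only CHR matches are in capitals in these windows.

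Some Notch and proneural genes were peaks, though most members of both lists were not. Of 18 Notch ligands, receptors and targets, 6 were tested peaks, which are the ligand genes Dll1 and Dll3, the glycosyltransferase genes Lfng and Mfng, and the target genes Hes5 and Nrarp, and 1 was a tested dip (Jag1). This count was the least stable of those given here. It was 3 by edgeR's test on recovered reads, 2 without Day 12 +Wnt replicate 1, and 3 without Day 12 +Wnt replicate 2, Day 15 +Wnt replicate 1 or Day 15 +Wnt replicate 2. The second step was small in all 6 (between 1.19-fold and 1.44-fold). Mfng was measured at 8.38, 5.21 and 10.7 CPM at Day 10, 32.8, 33 and 35.8 CPM at Day 12 +Wnt and 20.8, 26 and 23.5 CPM at Day 15 +Wnt. Its Day 12 values were 4.18-fold those of Day 10 and only 1.44-fold those of Day 15 (log2 1.30 ± 0.15 SE, adjusted p = 2.64e-06). Hes5 was at 9.63 to 13.9 CPM, 42.1 to 49.6 CPM and 35.3 to 38.7 CPM, so that most of the gain was kept. Dll3 rose 3.04-fold and fell 1.43-fold. In the +Fgf tissue all 6 genes rose from Day 12 to Day 15, and Hes5 reached 148 to 176 CPM there. Of the whole list 12 of 18 genes rose at that step, beside 27.2% of all genes.

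The ligand gene Jag1 went the opposite way, with 70.7, 83.4 and 71.9 CPM at Day 10, 22.8, 21.9 and 23 CPM at Day 12 +Wnt and 28.7, 31.2 and 27.4 CPM at Day 15 +Wnt (log2 -1.04 ± 0.08 SE, adjusted p = 5.49e-08). It was 9.29-fold higher in Day 12 +Fgf tissue (184 to 249.7 CPM), from where it fell to 19.6 to 21.5 CPM at Day 15. Among 16 proneural and neuronal differentiation regulators, Neurod4, Neurog1 and Insm1 were tested peaks and none was a dip. Neurog1, a proneural transcription factor, stood at 3.61, 4.95 and 4.28 CPM at Day 10, 10.3, 10.4 and 9.47 CPM at Day 12 +Wnt and 3.04, 4.47 and 5.05 CPM at Day 15 +Wnt. Its Day 15 level was close to that of Day 10 (log2 1.21 ± 0.28 SE, adjusted p = 0.0021). Insm1, a zinc finger gene of newborn neurons, had 17.1 to 26.1 CPM, 26.9 to 34.3 CPM and 17.2 to 23.3 CPM (log2 0.60 ± 0.12 SE, adjusted p = 0.000758). Neurod4 was low throughout, at 4.59 to 5.69 CPM at Day 12 +Wnt, whereas Day 15 +Fgf tissue held 114 to 134 CPM. None of 24 genes of early neurons and retinal ganglion cells was a peak, and 19 of them rose from Day 12 to Day 15 +Wnt. The neuron list summed to 273 to 401 CPM at Day 10, 1118 to 1578 CPM at Day 12 +Wnt and 2561 to 3156 CPM at Day 15 +Wnt. Nalcn, an ion channel gene, stayed high, with 29.4 to 33.6 CPM at Day 12 +Wnt and 26.4 to 34.5 CPM at Day 15 +Wnt. Robo3, an axon guidance receptor gene, had 15.7 to 23.7 CPM at Day 12 and 10.8 to 14.4 CPM at Day 15, without overlap. Neither second step was called by limma (adjusted p = 0.85 and 0.21), so neither gene was a tested peak.

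The largest peaks were mostly absent from these lists. Rxrg, a retinoid X receptor expressed in developing photoreceptors among other cells, was measured at 35.7, 28.5 and 31.3 CPM at Day 10, 48.7, 61 and 46.2 CPM at Day 12 +Wnt and 3.97, 2.91 and 3.3 CPM at Day 15 +Wnt. The gain at Day 12 was 1.63-fold and the loss by Day 15 was 15.3-fold, with no overlap at either step (log2 2.26 ± 0.14 SE, adjusted p = 5.58e-09). The gene lies on the plus strand at chr1:167598384-167639623 (GRCm38). In +Fgf tissue it had fallen to 2.87 to 4.59 CPM by Day 12. Of 7 photoreceptor genes tested, Rxrg was the only tested peak, and the photoreceptor list summed to 79.9 to 90.6 CPM at Day 12 +Wnt, with Rcvrn, Nrl and Nr2e3 at 0 in all 3 libraries and Rcvrn at 0 at Day 10 too.

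The gene listed as 3632451O06Rik stood at 13.6, 11.8 and 12.1 CPM at Day 10, 139.7, 141 and 162 CPM at Day 12 +Wnt and 71.8, 75.3 and 73.9 CPM at Day 15 +Wnt, which is 11.8-fold above Day 10 and 2-fold above Day 15 (log2 2.26 ± 0.11 SE, adjusted p = 2.92e-10). Cntn1, an adhesion molecule of neurons, rose 6.86-fold (4.41 to 5.04 CPM at Day 10, 31.1 to 34.8 CPM at Day 12) and kept much of this gain, with 20.4 to 23.3 CPM at Day 15. Klhl13, an adaptor of a ubiquitin ligase that acts in mitosis, was the most abundant of the 12 largest peaks, with 95.8, 88.6 and 90.2 CPM at Day 10, 286, 301 and 312 CPM at Day 12 +Wnt and 136, 135 and 119 CPM at Day 15 +Wnt (log2 1.46 ± 0.09 SE, adjusted p = 3.13e-09). Opn3, an opsin found outside the photoreceptors too, had 28.1 to 34.1 CPM at Day 12 against 8.38 to 8.76 CPM at Day 10 and 12.4 to 15.4 CPM at Day 15, and its exons share bases with those of Chml on the same strand. The transcription factor gene Dmrta1 reached 28.3 to 33.3 CPM and was at 8.89 to 12.8 CPM and 7.88 to 11.2 CPM on either side (log2 1.58 ± 0.29 SE, adjusted p = 0.000322). Tmem150c, Katnal2, Thnsl2 and Klhl4 had contrasts between 1.31 and 1.54. Gmnc, a regulator of multiciliated cells, was at 10.4, 7.69 and 9.63 CPM at Day 10, 27.4, 33.5 and 39.3 CPM at Day 12 +Wnt and 15.5, 17.2 and 10.2 CPM at Day 15 +Wnt (log2 1.52 ± 0.37 SE, adjusted p = 0.0029). It was the only one of the 12 whose contrast did not differ between +Wnt and +Fgf by limma (adjusted p = 0.18), and all 12 were higher in +Wnt than in +Fgf tissue at Day 12. Of all genes 25.2% were higher at Day 12, and that comparison uses the +Wnt libraries that chose the peaks.

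In the lists of adhesion, RPE and organelle genes most members were not tested peaks. Tested peaks were 2 of 16 cadherin and epithelial genes, 2 of 19 lysosomal genes, 2 of 19 respiratory chain genes and 3 of 14 endoplasmic reticulum genes. Each is a larger share than the 5.46% of all genes, though it rests on 3 genes or fewer. Cdh2 (N-cadherin) stood at 616 to 619 CPM at Day 12 +Wnt, against 426 to 452 CPM before and 399.6 to 461 CPM after (log2 0.52 ± 0.05 SE, adjusted p = 2.46e-07), and Epcam, an epithelial adhesion molecule, at 8.8 to 12.1 CPM, against 3.07 to 4.13 CPM and 6.45 to 8.5 CPM. Rdh10, which makes retinal from retinol, was the only tested peak among 10 visual cycle and mature RPE genes, at 77, 77.9 and 69.6 CPM at Day 10, 82.8, 91.8 and 87.1 CPM at Day 12 +Wnt and 51.1, 48.9 and 50.4 CPM at Day 15 +Wnt (log2 0.51 ± 0.05 SE, adjusted p = 1.82e-06). The lysosomal genes Lamp1 and Atp6v0d1, the respiratory chain genes Sdha and Cox7b, and the endoplasmic reticulum genes Hsp90b1, Pdia6 and Dnajc3 had contrasts of 0.36, 0.49, 0.25, 0.20, 0.20, 0.24 and 0.18. These are changes of 1.75-fold or less in mean CPM at either step. Dnajb9, another chaperone gene of the endoplasmic reticulum, was a tested dip (-0.38), and Lmx1b, a gene of the dorsal midline and midbrain, was the only tested peak among 14 posterior identity genes. Smo, the signal transducer of the Hedgehog pathway, was at 269 to 279 CPM, 290.5 to 296 CPM and 202 to 209 CPM. Foxd1, a gene of the temporal retina, was a tested peak, but its Day 12 values were 13.7, 4.18 and 6.88 CPM, and without Day 12 +Wnt replicate 1 its contrast no longer passed (log2 1.58, adjusted p = 0.078).

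Among the dips, immediate early genes stood out. These genes answer growth factor and stress signals without new protein synthesis. Of 18 measured, 11 were dips and 9 were tested dips (Egr1, Fos, Jun, Junb, Klf4, Klf6, Maff, Nr4a1 and Zfp36), none was a peak, and the median contrast was -1.11. Fos, a subunit of the AP-1 factor, was measured at 13.8, 9.49 and 7.64 CPM at Day 10, 1.32, 1.04 and 1.26 CPM at Day 12 +Wnt and 8.56, 7.23 and 8 CPM at Day 15 +Wnt. The Day 12 values were the lowest of all 15 libraries, 8.53-fold below Day 10 and 6.57-fold below Day 15 (log2 -2.61 ± 0.19 SE, adjusted p = 2.06e-08). Its partner gene Junb had 6.89 to 9.61 CPM, 1.13 to 1.64 CPM and 4.25 to 4.59 CPM (log2 -1.91 ± 0.16 SE, adjusted p = 1.5e-07). Maff, a small leucine zipper factor, had a contrast of -1.44. The zinc finger gene Egr1 had 17 to 23.6 CPM, 3.18 to 5.03 CPM and 14 to 16.9 CPM (log2 -2.11 ± 0.13 SE, adjusted p = 5.52e-09). In Day 12 +Fgf tissue Egr1 was at 26.2 to 29.9 CPM and Fos at 9.49 to 10.5 CPM. Of the 9 tested dips, 8 were lower at Day 12 +Wnt than at Day 12 +Fgf, 6 had risen from Day 10 to Day 12 +Fgf, and 5 fell from Day 12 to Day 15 +Fgf. The shares of all genes were 26.3%, 27.9% and 29.9%, and the comparison at Day 12 uses the +Wnt libraries that chose these dips. Atf3, Fosb and Cyr61 fell at Day 12 and their second step was not called by limma.

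**Figure D4:**
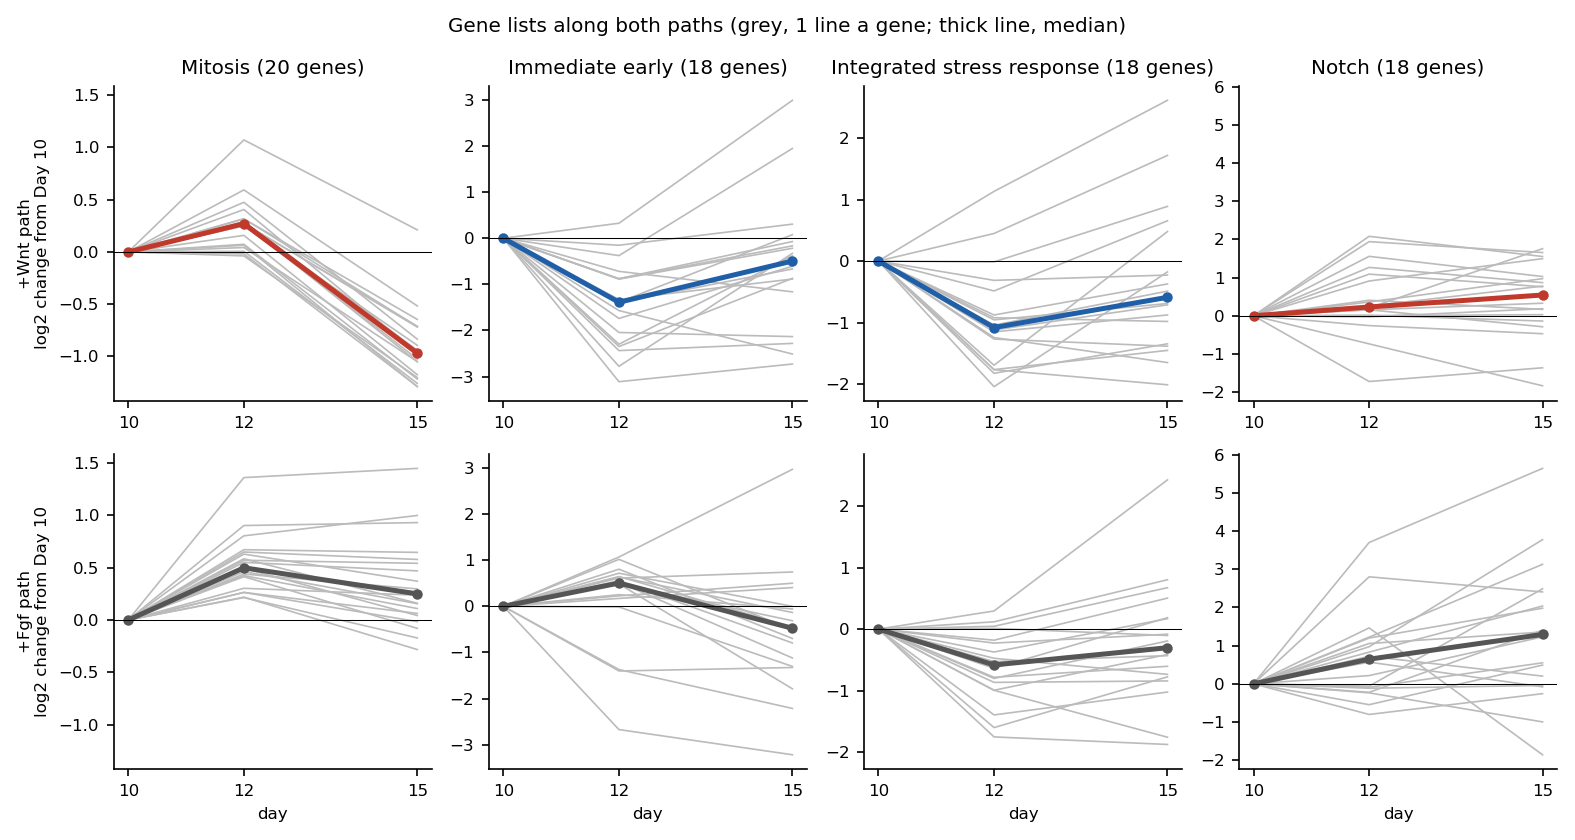
Lines give the log2 change from Day 10 at Day 12 and Day 15 along the +Wnt path (upper row) and the +Fgf path (lower row), grey for each gene and thick for the median of a list, and the vertical scale is shared within a column only. The median of the mitosis genes rises and then falls below Day 10 on the +Wnt path and stays above Day 10 on the +Fgf path, and the median of the immediate early genes dips at Day 12 on the +Wnt path and rises at Day 12 on the +Fgf path.

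A minority of the Fgf feedback genes dipped as well. Of 12 measured, Spry2, Etv5, Spred2 and Spred3 were tested dips and none was a peak (median contrast -0.34). Spry2, an inhibitor of receptor tyrosine kinase signalling, stood at 24, 25.3 and 28.7 CPM at Day 10, 9.18, 9.67 and 9 CPM at Day 12 +Wnt and 20.4, 21.6 and 21.3 CPM at Day 15 +Wnt (log2 -1.31 ± 0.08 SE, adjusted p = 5.14e-09). Most of the loss had been regained by Day 15. Etv5, a transcription factor of the same pathway, had 46.3 to 61.8 CPM, 16.4 to 20.9 CPM and 22.9 to 32.6 CPM (log2 -1.04 ± 0.10 SE, adjusted p = 7.4e-07), and Spred2 and Spred3 had contrasts of -0.47 and -0.34. All 12 genes of the list had risen at Day 12 in +Fgf tissue, which received bFgf with 10% FBS, beside 27.9% of all genes. Of the 12, 11 (the 4 dips included) were then lower in +Wnt than in +Fgf tissue, beside 26.3% of all genes. That comparison uses the +Wnt libraries that chose the dips.

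Genes of the integrated stress response and of amino acid supply formed another group of dips. The response is driven by the factor Atf4 when amino acids are short or protein folding fails. Of 18 measured, 9 were tested dips (Asns, Atf5, Chac1, Phgdh, Pycr1, Shmt2, Slc3a2, Slc7a5 and Trib3) and none was a peak, with a median contrast of -0.70. Trib3, a pseudokinase induced by this response, was at 4.63, 13.7 and 4.66 CPM at Day 10, 1.51, 1.18 and 1.52 CPM at Day 12 +Wnt and 6.08, 4.55 and 7.37 CPM at Day 15 +Wnt. Day 10 replicate 2 stood well above the other Day 10 libraries here and for Chac1, and the Day 12 values were the lowest of the path (log2 -1.95 ± 0.28 SE, adjusted p = 3.34e-05). Chac1, which breaks down glutathione, had 3.82, 10.3 and 2.37 CPM at Day 10, 1.2, 1.11 and 1.32 CPM at Day 12 and 5.71, 6.19 and 7.79 CPM at Day 15 (log2 -1.93 ± 0.29 SE, adjusted p = 5.26e-05). Asns, the asparagine synthetase gene, fell 3.56-fold, with 151 to 171 CPM at Day 10 and 42.3 to 47.6 CPM at Day 12, and had come back to no more than 73.4 CPM at Day 15. The amino acid transporter gene Slc7a5 likewise fell 3.41-fold and rose 1.25-fold. In 7 of the 9 genes the Day 15 mean remained under that of Day 10.

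Much of this course was also measured in +Fgf tissue. There 7 of the 9 genes also fell from Day 10 to Day 12, against the same Day 10 libraries, and 6 rose from Day 12 to Day 15 +Fgf, where 27.9% of all genes fell at the first of these steps and 27.2% rose at the second. The transient contrast was lower in +Wnt than in +Fgf for 5 of the 9, beside 17.2% of all genes. The +Wnt libraries that chose these dips enter that comparison, so it describes the 9 genes and does not test them. By the same limma test the difference did not pass for Trib3 (adjusted p = 0.12) or Asns (adjusted p = 0.12). The promoters of Chac1 (chr2:119350992-119351291, plus strand) and Trib3 (chr2:152344011-152344310, minus strand), in the same 300-base window of GRCm38.p6, are printed because both genes turned back strongly, with the match to the C/EBP-ATF response element (CARE, TGATGNAA on either strand) in capitals:

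Chac1: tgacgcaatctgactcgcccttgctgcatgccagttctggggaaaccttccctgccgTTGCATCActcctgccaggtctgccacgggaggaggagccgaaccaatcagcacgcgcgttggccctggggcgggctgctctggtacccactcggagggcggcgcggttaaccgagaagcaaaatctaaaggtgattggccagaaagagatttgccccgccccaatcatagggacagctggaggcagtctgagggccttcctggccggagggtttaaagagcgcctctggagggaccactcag
Trib3: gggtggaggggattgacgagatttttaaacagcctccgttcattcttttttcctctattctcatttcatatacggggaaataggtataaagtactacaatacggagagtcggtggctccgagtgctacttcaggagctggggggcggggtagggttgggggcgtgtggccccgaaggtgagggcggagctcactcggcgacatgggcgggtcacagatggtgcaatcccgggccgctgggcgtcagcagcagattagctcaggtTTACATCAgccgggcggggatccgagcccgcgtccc

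Both matches are on the strand opposite to the gene. This motif, also chosen after the values were seen, was found in 4 of 8 promoters of these dips (Asns, Chac1, Pycr1 and Trib3), in 3.75% of tested dips and in 2.13% of all genes. The CArG box of serum response factor, the last of 4 motifs searched, was in 1 of 8 immediate early dips (Zfp36), 0 of 3 contractile dips, 2.5% of tested dips, 1.72% of tested peaks and 1.3% of all genes. A match is only a run of letters and does not show binding. The metallothionein genes Mt1 and Mt2, which bind zinc and copper and were picked after their values were seen, dipped too. Mt1 was at 74.7 to 91.9 CPM, 20.1 to 28 CPM and 109 to 130.1 CPM, and Mt2 at 57.8 to 71.8 CPM, 6.29 to 13.3 CPM and 31.9 to 45.3 CPM. Both also fell from Day 10 to Day 12 +Fgf.

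In the BMP and TGF-β pathway 7 of 22 genes were tested dips (among them Fst, Grem1, Id1, Id2, Tgfb1 and Tgfb3) and none was a tested peak. The list joins inhibitors of the pathway with its ligands and targets. Grem1, a secreted BMP antagonist, was at 4.29, 6.89 and 5.43 CPM at Day 10, 1.32, 1.53 and 2.32 CPM at Day 12 +Wnt and 9.43, 10.2 and 10.4 CPM at Day 15 +Wnt (log2 -1.96 ± 0.18 SE, adjusted p = 2.56e-07). Fst, which binds activin, had 6.19 to 9.29 CPM, 2.99 to 5.23 CPM and 11.8 to 14 CPM, so it ended above its Day 10 level. The ligand gene Tgfb3 had 18.5 to 21.2 CPM, 5.23 to 8.35 CPM and 8.43 to 13.6 CPM and ended below it. The BMP target Id1 had 75.1 to 99.1 CPM, 48.4 to 64.6 CPM and 81.4 to 100.5 CPM. All 7 were lower at Day 12 in +Wnt than in +Fgf tissue. So were 14 of the 22 genes in all, beside 26.3% of all genes tested. The comparison uses the Day 12 +Wnt libraries that chose the dips. Of 24 axon guidance genes 7 were tested dips (Efnb2, Epha5, Plxna2, Sema6a, Slit3, Unc5a and Unc5b) and 1 was a tested peak (Ephb2). Unc5b, a netrin receptor, stood at 164, 128 and 153 CPM at Day 10, 23.5, 23.6 and 21.6 CPM at Day 12 +Wnt and 49.7, 54 and 45.9 CPM at Day 15 +Wnt (log2 -1.89 ± 0.14 SE, adjusted p = 2.06e-08). The ephrin receptor gene Epha5 and the plexin gene Plxna2 ended above their Day 10 levels, at 54.3 to 61.2 CPM and 65 to 70.1 CPM, after Day 12 values of 22.7 to 24.1 CPM and 18.7 to 23 CPM.

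Several of the largest dips stood below 1 CPM at Day 12 +Wnt. Emp1 (chr6:135362545-135383173, plus strand), a small membrane protein of epithelia, was measured at 5.04, 3.74 and 6.19 CPM at Day 10, 0.315, 0.139 and 0.728 CPM at Day 12 +Wnt and 19.3, 18.6 and 22 CPM at Day 15 +Wnt. The Day 12 libraries held at most 11 reads of the gene, and the Day 15 mean was 50.6-fold that of Day 12 (log2 -3.97 ± 0.30 SE, adjusted p = 3.39e-08). F5, coagulation factor V, fell 43.6-fold, with 18.7 to 27.2 CPM at Day 10, 0.53 to 0.566 CPM at Day 12 and 4.91 to 6.95 CPM at Day 15 (log2 -3.83 ± 0.16 SE, adjusted p = 6.75e-11), and its exons share bases with a gene on the other strand (Gm16548). Sema3e and its receptor gene Plxnd1, a ligand and receptor pair in vessel and axon guidance, were both among the 12 largest dips. Sema3e (chr5:14025276-14256689, plus strand) stood at 31.3, 33.5 and 38.2 CPM at Day 10, 1.07, 0.278 and 0.596 CPM at Day 12 +Wnt and 3.78, 3.28 and 2.17 CPM at Day 15 +Wnt, so little of the loss was regained (log2 -3.58 ± 0.20 SE, adjusted p = 1.82e-09). Plxnd1 instead ended high, with 20.2 to 21.7 CPM, 3.27 to 4.57 CPM and 64.8 to 74.7 CPM (log2 -3.26 ± 0.12 SE, adjusted p = 1.96e-11).

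Ptrf (cavin-1), a coat protein of caveolae, was at 37.7, 40.8 and 40.6 CPM at Day 10, 2.89, 1.95 and 2.18 CPM at Day 12 +Wnt and 24.3, 18.4 and 21 CPM at Day 15 +Wnt (log2 -3.49 ± 0.12 SE, adjusted p = 7.93e-12). Day 12 lay apart from both other groups, with no library in between. A list of contractile and actin-linked genes, added after its members' values had been seen, held 4 tested dips of 23 measured (Acta2, Mylk, Ptrf and Tagln2) and no peak. Of the 23, 22 were lower at Day 12 in +Wnt than in +Fgf tissue, beside 26.3% of all genes. From Day 10 to Day 12, 18 had risen in +Fgf and 21 had fallen in +Wnt tissue, beside 27.9% and 29.6% of all genes. Cyp1b1, a cytochrome P450 that metabolizes retinoids and steroids, had 31.3 to 47.8 CPM, 5.57 to 9.6 CPM and 59.7 to 71.2 CPM (log2 -2.78 ± 0.19 SE, adjusted p = 1.05e-08). A2m, a protease inhibitor, had 30.9 to 32.6 CPM, 4.59 to 5.43 CPM and 51.2 to 54.5 CPM (log2 -2.97 ± 0.10 SE, adjusted p = 5.43e-12). Htra1, a secreted protease, dipped little and then rose 33.4-fold, so its place among the largest dips rests on the second step (first step -0.54, adjusted p = 0.033). Kcnip1, Lgals3 and AI593442 were at 0.252 to 0.53 CPM, 0.209 to 0.818 CPM and 0.377 to 0.662 CPM at Day 12 +Wnt. All 12 of the largest dips were lower in +Wnt than in +Fgf tissue at Day 12, beside 26.3% of all genes. The contrast was lower than that of +Fgf in all 12, beside 17.2% of all genes. Both comparisons use the Day 12 +Wnt libraries that chose the dips.

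By CPM the largest dips were Krt18, Sparc, Ckb and Eef2. Krt18, a keratin of simple epithelia, was measured at 166, 115 and 132 CPM at Day 10, 95.4, 77.5 and 62.7 CPM at Day 12 +Wnt and 355, 262 and 321 CPM at Day 15 +Wnt (log2 -1.40 ± 0.18 SE, adjusted p = 1.24e-05). Its partner Krt8 had 12.6, 4.94 and 8.27 CPM at Day 12 against 15.9 to 16.6 CPM and 27 to 36.4 CPM. Sparc, a matrix protein, had 579 to 603 CPM, 403 to 447 CPM and 727 to 897 CPM. Eef2, the translation elongation factor, changed by little, with a contrast of -0.29. The RPE gene Serpinf1, which encodes the secreted factor PEDF, was a tested dip, at 17.1, 14.9 and 12.6 CPM at Day 10, 4.53, 3.9 and 5.63 CPM at Day 12 +Wnt and 24.3, 17.8 and 24.4 CPM at Day 15 +Wnt (log2 -1.89 ± 0.17 SE, adjusted p = 2.31e-07). Among eye field and retinal progenitor genes Fgf15 was a tested dip, at 7.03 to 11.2 CPM at Day 12 +Wnt and 166 to 255 CPM at Day 12 +Fgf.

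Several dips are markers of other cell types. The summed levels of endothelial and of surface ectoderm markers were lowest at Day 12 within the +Wnt path, while for mesenchyme and lens the Day 12 sums overlapped those of Day 10. Kdr (chr5:75932827-75978458, minus strand), a receptor of vascular endothelial growth factor that endothelium and also retinal progenitors express, stood at 34.3, 58.4 and 54.3 CPM at Day 10, 3.15, 3.27 and 6.82 CPM at Day 12 +Wnt and 21, 19.99 and 14 CPM at Day 15 +Wnt (log2 -2.74 ± 0.23 SE, adjusted p = 9.76e-08). The 9 endothelial and blood markers measured summed to 38.0 to 63.0 CPM at Day 10, 7.24 to 10.1 CPM at Day 12 +Wnt and 43.1 to 47.2 CPM at Day 15 +Wnt, with Ptprc, Tie1 and Gata1 at 0 in all Day 12 +Wnt libraries. Ptprc was also at 0 in all Day 10 and Day 15 +Wnt libraries. Kdr made up most of the sum at Day 10. The 12 mesenchyme markers summed to 139 to 170 CPM, 123 to 159 CPM and 593 to 720 CPM, with 3 tested dips (Acta2, Foxc2 and Postn) and none at 0 at Day 12 +Wnt. Acta2, smooth muscle actin, was at 15.1, 11.9 and 17.6 CPM at Day 10, 3.77, 2.58 and 2.52 CPM at Day 12 +Wnt and 29.3, 18.6 and 20.3 CPM at Day 15 +Wnt (log2 -2.52 ± 0.16 SE, adjusted p = 5.29e-09), while Day 12 +Fgf tissue held 156 to 218 CPM. Postn, a matrix protein, had 45.1 to 63.8 CPM, 13.4 to 15.6 CPM and 46.8 to 63.6 CPM. The 9 surface ectoderm markers, Krt8 and Krt18 included, summed to 140 to 192 CPM, 77.1 to 115 CPM and 353 to 457 CPM, with Krt5 and Krt14 at 0 at Day 12 +Wnt and Krt14 at 0 at Day 10 as well. Krt18, a keratin of simple epithelia, made up most of the surface ectoderm sum in each of these groups. At Day 15 +Fgf this sum was lower than at Day 12 +Wnt, at 16.4 to 40.5 CPM. For the lens list, where Cryab and Prox1 were tested dips, the sums were 15.8 to 19.5 CPM, 15.5 to 18.4 CPM and 78.5 to 107 CPM, with Cryaa and Foxe3 at 0 at Day 12 +Wnt and Foxe3 again at Day 15 +Wnt. The part of these cell types in the dips was not tested.

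The pigment genes held no tested member. Of 16 measured, 1 (Otx2) was a peak by non-overlap and none was a tested peak or dip. The sum of these genes of pigment cell specification and melanin synthesis was 1660 to 2211 CPM at Day 10, 2670 to 3218 CPM at Day 12 +Wnt and 7330 to 9397 CPM at Day 15 +Wnt. The median contrast of this list was -0.69, with a larger median rise after Day 12 (1.96) than before it (0.36). No gene of the sterol, ribosome biogenesis, stem cell, choroid plexus or forebrain lists was a tested peak or dip, and the heat shock, glycolysis, retinoic acid and neural crest lists held 1 tested dip each (Bag3, Hk2, Rarg and Kit). Their contrasts were -0.57, -1.38, -0.84 and -0.80. Of 17 p53 target genes Cdkn1a, a cell cycle inhibitor, Plk2 and Pmaip1 were tested dips (-0.38, -0.84 and -0.94), and none was a peak.

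The non-overlap rule used no library of +Fgf tissue, and the step from Day 12 to Day 15 +Fgf was read in the members. The filter on low values did count the +Fgf libraries, and 4 peaks and 28 dips passed it only with their help. Of 1013 peaks, 343 (33.9%) fell from Day 12 to Day 15 +Fgf, compared with 29.9% of all genes, and 190 (18.8%) rose, compared with 27.2%. Of 833 dips, 236 (28.3%) rose, compared with 27.2% of all genes, and 301 (36.1%) fell, compared with 29.9%. The share of peaks that fell and the share of dips that rose were thus near those of all genes. Over the 1009 peaks and 805 dips that passed the filter in the path libraries alone, a check added after seeing the data, 343 peaks (34%) fell and 227 dips (28.2%) rose, compared with 30.1% and 26.8% of all genes passing it. When RNA integrity (its RIN score) was added to the limma fit, 142 peaks (14%) fell and 128 dips (15.4%) rose, while the shares of all genes dropped to 12.4% lower and 13.6% higher. Every Day 15 +Fgf library had a lower RIN score than any Day 12 +Fgf library. RNA integrity and time thus cannot be fully told apart in this step. The same holds for the first step of the +Wnt path, since every Day 10 library had a lower RIN score than any Day 12 +Wnt library. With RIN in the limma fit, 607 tested peaks and 528 tested dips were found, against 756 and 643 without it.

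**Figure D5:**
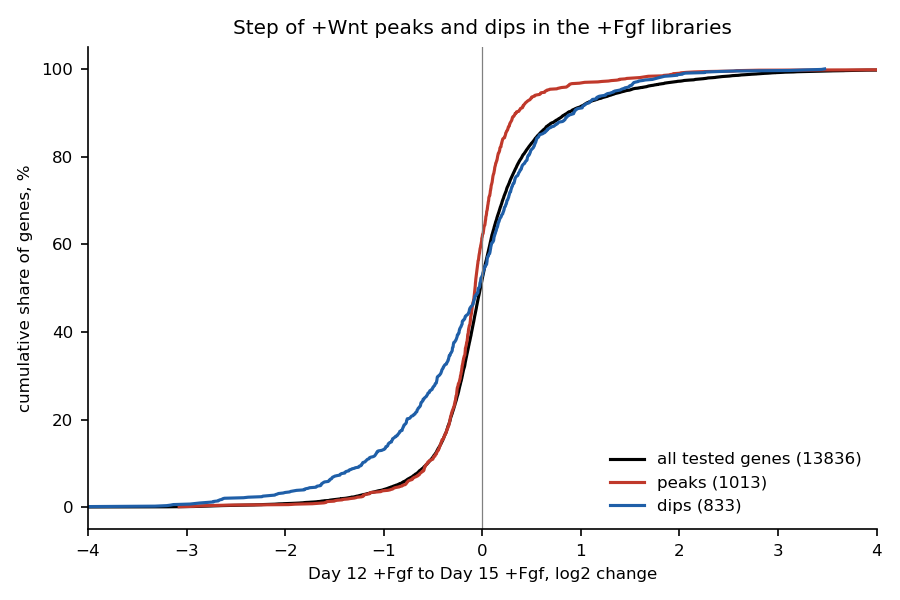
Curves give the cumulative share of genes by their log2 change from Day 12 to Day 15 +Fgf for all 13836 genes (black), 1013 peaks (red) and 833 dips (blue). Left of 0 the blue curve lies above the black one, as more dips had large decreases, and right of 0 the red curve lies above both, as fewer peaks had large increases.

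At Day 12 itself, 504 peaks (49.8%) were higher and 123 (12.1%) lower in +Wnt than in +Fgf tissue, and 553 dips (66.4%) were lower and 46 (5.52%) higher, where 25.2% of all genes were higher and 26.3% lower. The transient contrast was higher in +Wnt than in +Fgf for 625 peaks (61.7%) and lower for 586 dips (70.3%), against 21.6% and 17.2% of all genes. Both comparisons use the Day 12 +Wnt libraries that chose the members, so they describe the members and do not test them. On the +Fgf path, 1984 genes met the same non-overlap rule, against 1846 on the +Wnt path, and both paths share the Day 10 libraries.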

How the data were processed

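RNA of 15 libraries (5 groups of 3) was sequenced from a stranded kit; the strand setting of the authors' counting is not given in the sources used here. The submitters' processing notes name bcl2fastq 1.8.4, FastQC 0.10.1, TopHat2 2.0.8b, Cufflinks 2.1.1, edgeR 3.2.4 and the mm10 build, with no order. The deposited values are a normalized signal per gene entry that the authors made with edgeR and called CPM. Their columns sum to between 936418 and 1075448, so they were scaled by library factors and are not read counts. In each library 1 read was worth 0.0620 to 0.0764 CPM, and 100% of values were whole reads within 0.01, giving 12556998 to 16175450 recovered reads a library.

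Genes with a deposited value of at least 1 in at least 3 libraries were kept (13836). Tests were run on log2(value + 0.3) in limma 3.58.1 (R 4.3.3) with 5 group means, a mean-variance trend and Benjamini-Hochberg adjustment over all genes tested, called at 0.05. Fold changes are ratios of mean CPM, log2 differences carry the pseudocount and so understate low genes, and list medians are set beside the median of all genes. An edgeR 4.0.16 quasi-likelihood test on the recovered reads, other pseudocounts, filters and scalings, the RNA integrity number as a covariate, a replicate block and leaving out each library of the path were tried as alternatives. The limma script was tested on simulated data.

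The members and gene lists (37, with 3 added later) were chosen with earlier results of these data known. Genes were named by rule: the 12 largest tested peaks and dips of at least 10 CPM, the 4 of each with the largest change in CPM, up to 4 tested members of a list of at least 5 CPM, 10 genes named in advance for the label check and pathway, and 1 gene on each side of the border of each rule. Other genes are named where a count of 5 or fewer, or a list, covers them, chosen after their values were seen. Of 113 such genes 111 were placed in GENCODE M21 (GRCm38), and 27 of them share exon bases with another gene, which without a known strand setting leaves their values uncertain (among them Opn3, Hes5, Nusap1, Pdia6, Cryab, Klhl13, Krt8, Fgf15, Tmem150c and F5). Promoter windows came from RefSeq (GRCm38.p6). No column lacked a sample. Results for a few genes are not reported here. Python 3.11.15, NumPy 2.4.6, pandas 2.3.3 and matplotlib 3.10.9 were used.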

Additional observations from a re-analysis of the deposited data

Results flagged for a closer look

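Among the 113 named genes, 100 had a transient contrast that differed between +Wnt and +Fgf tissue by a limma test of the difference, which was higher for 21.6% and lower for 17.2% of all genes. That test used the Day 12 +Wnt libraries that chose the members, and the Day 10 libraries drop out of it, so it rests on Day 12 and Day 15 libraries and is a description of genes picked for their +Wnt course. On the log2 scale (+Wnt minus +Fgf) the difference was 4.09 for Rxrg, 3.16 for 3632451O06Rik, 2.51 for Cntn1, 2.22 for Tmem150c, 2.14 for Dmrta1, 1.80 for Dkk1, 1.60 for Klhl13, 1.54 for Klhl4, 1.34 for Opn3, 1.24 for Thnsl2 and 1.12 for Katnal2. Among the dips it was -5.14 for Emp1, -4.75 for Sema3e, -4.70 for F5, -4.33 for Plxnd1, -3.67 for Cyp1b1, -3.62 for Ptrf, -3.58 for Htra1, -3.20 for AI593442, -3.07 for Kdr, -2.64 for Lgals3, -1.85 for Kcnip1 and -1.42 for A2m. Of the largest peaks and dips, Gmnc alone did not pass (0.83, adjusted p = 0.18).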

How the results depend on the processing

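No named gene's contrast changed sign under the alternatives run. Peaks outnumbered dips in the main results but not under median-of-ratios scaling, with 898 peaks and 916 dips, 662 and 702 tested, and 2967 higher and 3073 lower contrasts, nor among tested members by edgeR. With RIN as a covariate, 142 peaks fell and 128 dips rose from Day 12 to Day 15 +Fgf (343 and 236 without it), and 1943 genes had a higher transient contrast in +Wnt than in +Fgf (2983). The same limma fit gave 607 tested peaks and 528 tested dips (756 and 643 without RIN). In it the contrasts of Axin2 (adjusted p = 0.088) and Otx2 (adjusted p = 0.065) did not pass. The Notch list held 3 tested peaks by edgeR (6 by limma), and the immediate early list 5 tested dips with a minimum of 10 CPM (9), a filter that leaves fewer genes. By edgeR there were 669 tested peaks and 675 tested dips, and 2957 genes higher and 2896 lower in the transient contrast (3398 and 2799 by limma). Under quantile normalization 1203 peaks and 763 dips were found, of which 759 and 565 were those of the main rule.

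Leaving out each library of the path in turn gave 1070 to 1375 peaks, 884 to 1119 dips, 619 to 799 tested peaks, 576 to 656 tested dips, and 2651 to 3364 higher and 2199 to 2752 lower transient contrasts. It gave 346 to 432 peaks lower and 244 to 304 dips higher at Day 15 +Fgf, 2407 to 3147 higher and 2062 to 2488 lower contrasts in +Wnt than in +Fgf, and tested members of 13 to 14 (mitosis), 2 to 7 (Notch), 8 to 10 (immediate early), 8 to 10 (stress response), 6 to 7 (BMP and TGF-β) and 5 to 7 (guidance). Without Day 12 +Wnt replicate 3 the contrasts of Axin2 (adjusted p = 0.072), Otx2 (0.057) and Mitf (0.13) did not pass, and the causes were not tested.

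Libraries of one number in different groups did not steadily deviate together (correlations -0.246 to 0.244, 2 of 9 above 0.1). So few libraries cannot exclude shared batches, and the main fit did not pair the numbers. A replicate block gave 741 tested peaks and 635 tested dips, and 3350 higher and 2778 lower contrasts. With 3 libraries a group, genes of few reads at Day 12, such as Emp1, have the least certain folds.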
